A study of Xenopus laevis with 8 samples.

Results

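Late blastula embryos lacking maternal and zygotic *wnt11b* (M/Z) were compared with +/Z embryos at Nieuwkoop and Faber stage 9, across every gene of the *X. laevis* count table. The comparison uses 4 of the 8 libraries of the series, 2 for each genotype, chosen by the genotype and stage in their labels. Each library came from the pooled RNA of 3 embryos. Of the 49086 genes listed, 23028 had enough counts at stage 9 to be tested.

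M/Z embryos came from eggs of *wnt11b* mutant females fertilised with mutant sperm. The females were homozygous for a 13-base deletion made by genome editing in the *wnt11b.L* gene of the inbred J strain. +/Z embryos came from eggs of wild-type J-strain females fertilised with mutant sperm, and so carry the mutant allele from the father. Both groups therefore share a mutant paternal allele, and the mother and the genotype of the embryo differ together. The females and clutches behind each pool were not named. A difference between mothers therefore cannot be told apart from an effect of the mutation. The p-values measure only the spread between pools, which was estimated largely across genes. No M/+ embryos, from mutant eggs and wild-type sperm, were in the libraries analysed here.

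At stage 9 the *Xenopus* embryo has just begun its own transcription, and most of its RNA is still the store laid down in the egg. Dorsal fate depends on a maternal signal that stabilises β-catenin on one side of the embryo, where genes such as *sia1* and *nodal3* are then switched on and the Spemann organiser forms. Endoderm fate depends on maternal *vegt* and on the Nodal ligands it induces in the vegetal region. *X. laevis* is allotetraploid, and many genes exist as a long (.L) and a short (.S) chromosome copy, called homeologs. Roles of the genes named below are those known in vertebrates, many of them from mammals.

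Total counts were 37265579 and 31428223 in M/Z and 29150030 and 24720921 in +/Z. Levels are given as CPM, counts as a share of the library total after TMM scaling of that total, with replicate 1 before replicate 2, and 3 counts in a library correspond to 0.0786 to 0.125 CPM. Log2 CPM correlated across genes at 0.988 between the M/Z pools and 0.984 between the +/Z pools, and at 0.908 to 0.910 between genotypes; the genes are not independent replicates. Summed markers of ovarian somatic cells were at 92.3 and 97 CPM in M/Z beside 110.0 and 91.4 CPM in +/Z. Nearly all of it was *cyp17a1.L*, with *foxl2*, *fshr*, *cyp19a1*, *hsd3b1* and *inha* at 8 counts or fewer in each library. Copies of *star* and *amhr2* were low but present. By counts, M/Z pools held more *star.L* (35, 39) than +/Z pools (17, 10), and more *star.S* (21, 10 against 2, 2). *amhr2.S* was seen only in +/Z (9, 17), while *amhr2.L* overlapped (22, 27 against 26, 12). Of the 3 tested, *cyp17a1.L*, *star.L* and *amhr2.L*, 0 passed the test described next. Erythroid markers summed to 7.86 and 8.11 CPM in M/Z and to 5.04 and 6.84 CPM in +/Z (0 of 1 tested passed), nearly all of it the gene that RefSeq names *epb42.S*, with globins at 2 counts or fewer, and sperm and testis markers to 43.3 and 47.1 CPM in M/Z and to 34 and 39 CPM in +/Z. Neither the erythroid nor the sperm and testis sums overlapped between genotypes. Most of the sperm and testis sum was *odf2.L*, at 1144 and 1036 counts in M/Z and 629 and 610 counts in +/Z. No gene with the symbol *prm1*, *tnp1*, *odf1* or *akap4* was listed. Of 5 sperm and testis markers tested, 1 passed, *spata4.L*, which was lower in M/Z. The part of such cells in the results was not tested. Of the maternal and first zygotic genes that define the late blastula, 11 of 12 and 13 of 13 listed had more than 3 counts, and *gdf1.S* had 0 in every library. The targeted gene gave no check of the labels, since the deletion is too small to remove its reads. *wnt11b.L* had 35.4 and 40.9 CPM in M/Z and 46.0 and 33.0 CPM in +/Z, with overlapping groups (log2 fold change -0.05, SE 0.17, edgeR adjusted p = 0.855).

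Genes differed in large numbers and in both directions. At an adjusted p under 0.05, 7130 genes passed (31% of those tested), of which 3610 were higher (15.7%) and 3520 lower (15.3%) in M/Z. At least a 2-fold difference was found as well for 3686 genes (16%), 2001 higher (8.69%) and 1685 lower (7.32%). The test was edgeR's quasi-likelihood test on the 4 stage 9 libraries with Benjamini-Hochberg adjustment, and fold changes are log2 of M/Z over +/Z with their standard error (SE). The median size of the difference among genes that passed was 1.04 on the log2 scale, and 1136 of them differed by 3 or more, 546 higher and 590 lower. With library totals in place of TMM scaling, the split of calls was 4444 higher and 2876 lower, and the median log2 fold change of all genes then moved from -0.0029 to 0.08. In a fit across all 8 libraries, where the spread also includes the more variable stage 10.5 pools, 3000 of the 7130 calls (42.1%) and 2420 of the 3686 calls of at least 2-fold (65.7%) passed. The first number is 13% of the 23028 genes.

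**Figure D1:**
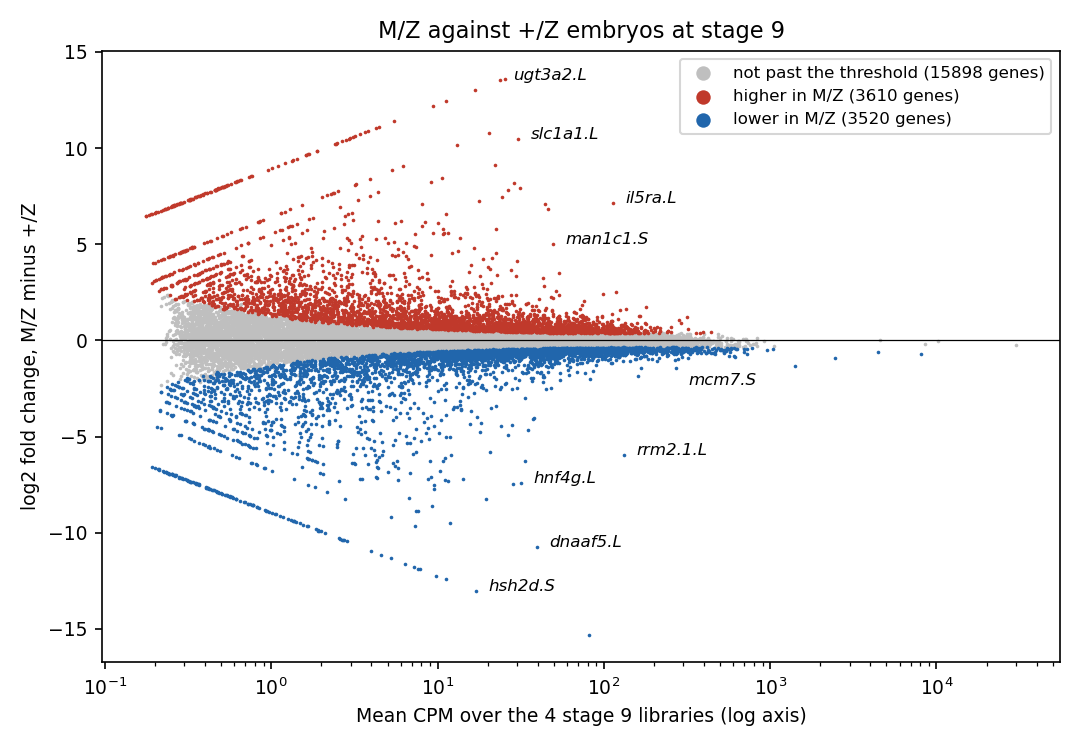
Log2 fold change between M/Z and +/Z embryos (vertical axis) against the mean level over the 4 stage 9 libraries in CPM (horizontal log axis), 1 point for each of 23028 genes. Red points are the 3610 genes higher and blue points the 3520 genes lower in M/Z at an adjusted p under 0.05; the diagonal streaks at the edges are genes with 0 or very few counts in one genotype, for which the fitted value is no measure of size.

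Large differences were found mainly among genes of low and medium level. Between 1 and 10 CPM, 36.8% of 6529 genes passed and 28.9% passed with at least a 2-fold difference. At 100 CPM or more, 22.9% of 2629 genes passed but only 0.951% differed by at least 2-fold, 12 higher and 13 lower. These abundant genes leaned downward, with 437 lower and 166 higher in M/Z, but the lean depended on the scaling, for with library totals 277 were lower and 272 higher. Genes that stood at least 4-fold lower at stage 10.5 than at stage 9, over both genotypes, also leaned downward, with 120 lower and 72 higher among 515 tested (37.3% passed; 106 lower and 85 higher with library totals). Among the 1138 genes at least 4-fold higher at stage 10.5, 298 passed (26.2%), 146 higher and 152 lower. Of the 56 gene lists described below, 16 had a median between -0.082 and 0 that became positive with library totals, and only the larger leanings are named as such. Where library totals moved the share of higher calls in a list by more than 10 percentage points, that split is given beside the other. The count passing in each list is to be read beside the 31% of all genes tested that passed, 15.7% higher and 15.3% lower. A list near these shares is not set apart from other genes.

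Among the targets of dorsal β-catenin and the organiser genes, the members that passed were lower in M/Z with 2 exceptions. Of this list, 22 of 38 tested members passed, 2 higher and 20 lower in M/Z (median log2 fold change -0.98), against a median of -0.0029 over all genes tested; 18 of the lower members differed at least 2-fold. *sia1.L*, a homeobox gene switched on directly by β-catenin, had 2.23 and 3.26 CPM in M/Z and 13.3 and 9.06 CPM in +/Z (log2 fold change -2.03, SE 0.27, edgeR adjusted p = 8.46e-06). Its level in both M/Z pools was below that in both +/Z pools. *nodal3.2.L*, a Nodal-related gene of the dorsal blastula, had 7.16 and 9.54 CPM in M/Z and 24.1 and 20.1 CPM in +/Z (log2 fold change -1.41, SE 0.21, edgeR adjusted p = 2.81e-05). *admp.S*, a BMP-type ligand made in the organiser, had 6.16 and 6.86 CPM in M/Z and 17.9 and 21.0 CPM in +/Z (log2 fold change -1.58, SE 0.21, edgeR adjusted p = 6.2e-06). In both genes the pools of the genotypes did not overlap, as in *sia1.L* and in 65.7% of all genes tested. Replicates of *nodal3.2.L* and *admp.S* lay close together.

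Other organiser genes varied more between the +/Z pools. *chrd.L*, the secreted BMP antagonist Chordin, had 5.27 and 4.56 CPM in M/Z and 14.5 and 7.77 CPM in +/Z (log2 fold change -1.19, SE 0.27, edgeR adjusted p = 0.00196), and *gsc.L*, the homeobox gene goosecoid, had 0.786 and 0.708 CPM in M/Z and 2.79 and 1.13 CPM in +/Z (log2 fold change -1.40, SE 0.47, edgeR adjusted p = 0.0277). In both, the first +/Z pool was well above the second, which lay closer to M/Z. Without the first pool neither gene passed, *chrd.L* with a log2 fold change of -0.66 (adjusted p = 0.0813) and *gsc.L* with -0.59 (adjusted p = 0.547). The other goosecoid copy did not pass, with *gsc.S* at 5.16 and 7.39 CPM in M/Z and 6.28 and 4.3 CPM in +/Z (edgeR adjusted p = 0.538). *nodal6.S*, a Nodal ligand of the vegetal blastula, and *sp5.L*, a zinc finger gene that responds to Wnt, were lower in M/Z by log2 fold changes of -1.56 and -1.85. Only 6 of the 22 members that passed also passed with the spread of all 8 libraries, *sia1.L* (adjusted p = 0.00942) and *nodal3.2.L* (0.0451) among them and *admp.S* (0.107), *chrd.L* (0.322), *gsc.L* (0.21), *nodal6.S* (0.355) and *sp5.L* (0.111) not. The *nodal3* copies are near identical, so the division of reads between them by *RSEM* is uncertain.

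Endoderm determinants were lower in M/Z without exception among those that passed. 17 of 30 tested members passed, 0 higher and 17 lower in M/Z (median log2 fold change -0.65). *gata6.S*, a zinc finger gene of the endoderm, had 0.0786 and 0.185 CPM in M/Z and 6.14 and 3.72 CPM in +/Z (log2 fold change -5.23, SE 0.49, edgeR adjusted p = 7.11e-08). *mixer.S*, a homeobox gene induced by Nodal, had 3.17 and 2.34 CPM in M/Z and 9.25 and 8.35 CPM in +/Z (log2 fold change -1.67, SE 0.26, edgeR adjusted p = 5.26e-05), while its homeolog *mixer.L* had 4.19 and 4.19 CPM in M/Z and 7.09 and 4.26 CPM in +/Z and did not pass (edgeR adjusted p = 0.244). *sox17b.1.S*, an HMG-box gene needed for endoderm, had 16.4 and 17.9 CPM in M/Z and 39.8 and 35.3 CPM in +/Z (log2 fold change -1.13, SE 0.17, edgeR adjusted p = 3.57e-05). The 2 M/Z pools lay below both +/Z pools in each of these genes, and those of *gata6.S* were within a few counts of 0. Pools of the genotypes did not overlap, in either direction, in 65.7% of all genes tested.

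Genes upstream of these were also lower in M/Z, *vegt* by less than the Nodal ligands. *vegt.S*, the maternal T-box gene of the vegetal region, had 221 and 233 CPM in M/Z and 351 and 358 CPM in +/Z (log2 fold change -0.64, SE 0.13, edgeR adjusted p = 0.000907), and *vegt.L* had 249 and 288 CPM in M/Z and 409 and 359 CPM in +/Z (log2 fold change -0.51, SE 0.14, edgeR adjusted p = 0.00773). The Nodal ligands *nodal1.L* and *nodal2.L* were lower by log2 fold changes of -2.15 and -2.19. *sox17a.L* and *sox17a.S* were lower by -0.88 and -1.04, with the first +/Z pool of each well above the second. Without that pool, *sox17a.L* (adjusted p = 0.237), *nodal2.L* (0.122) and *vegt.L* (0.0772) did not pass. In the 8-library fit 10 of the 17 calls remained, and *vegt.L* (adjusted p = 0.0663), *sox17a.L* (0.0809) and *sox17a.S* (0.114) were lost. Over the whole list, without the first +/Z pool 12 members were lower and 1 higher in M/Z, and without the second 21 were lower. These are pools of whole embryos, in which fewer cells of a type and less RNA per cell cannot be told apart.

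**Figure D2:**
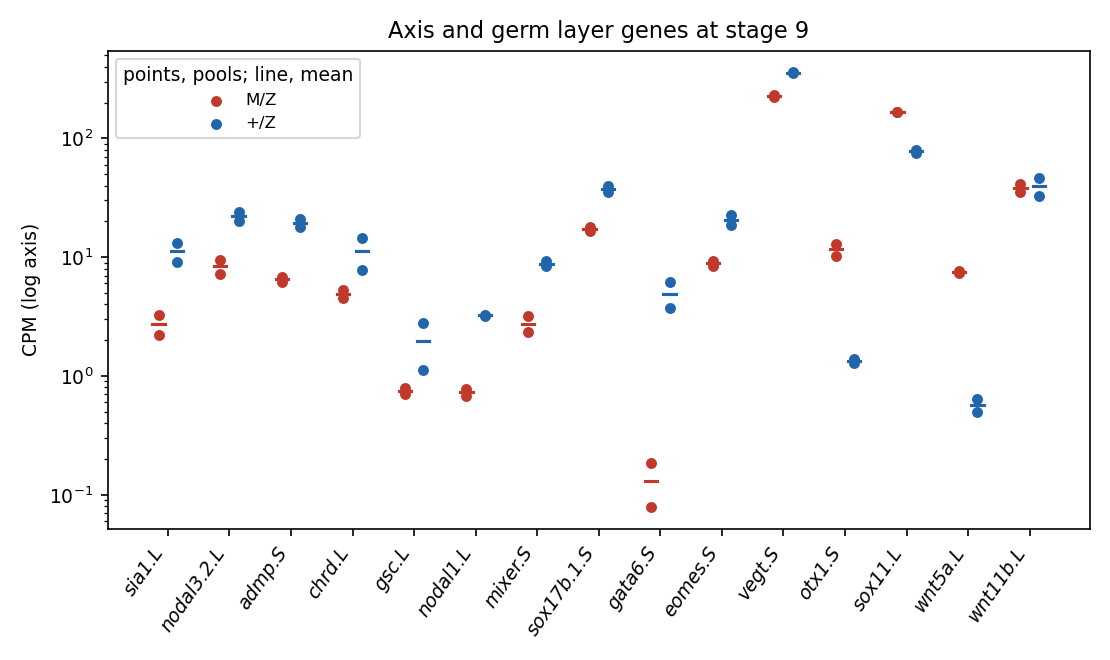
Level in CPM (log axis) of 15 genes in each pool of M/Z (red) and +/Z (blue) embryos at stage 9, with a short line at the mean of each pair. The organiser and endoderm genes from *sia1.L* to *vegt.S* lie lower in M/Z, *otx1.S*, *sox11.L* and *wnt5a.L* lie higher, and the pools of *wnt11b.L* overlap.

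Mesoderm and ventral genes differed in both directions. Of the mesoderm list, 11 of 28 tested members passed, 3 higher and 8 lower in M/Z (median log2 fold change -0.22; 5 higher and 7 lower with library totals). *eomes.S*, a T-box gene of the mesendoderm, had 8.39 and 9.29 CPM in M/Z and 22.7 and 18.6 CPM in +/Z (log2 fold change -1.22, SE 0.20, edgeR adjusted p = 8.82e-05). *tbx6.S*, a T-box gene of paraxial mesoderm, went the other way, at 10.2 and 11.1 CPM in M/Z and 0.0353 and 0 CPM in +/Z, with 1 count in total in the +/Z pools. *fgf20.S*, an FGF ligand, was lower by a log2 fold change of -2.13. Of the BMP and ventral genes, 18 of 49 tested members passed, 7 higher and 11 lower in M/Z (median log2 fold change -0.12). *ventx3.2.S*, a ventral homeobox gene, had 1.81 and 2.06 CPM in M/Z and 5.79 and 5.6 CPM in +/Z (log2 fold change -1.56, SE 0.29, edgeR adjusted p = 0.000313), and *evx1.L*, another, had 0.0786 and 0.308 CPM in M/Z and 2.33 and 2.21 CPM in +/Z (log2 fold change -3.58, SE 0.56, edgeR adjusted p = 5.7e-05). Both lay lower in M/Z in each pool, where 65.7% of all genes tested had pools that did not overlap, in either direction. *bmp4.L* and *bmp4.S*, the BMP ligand, did not pass (log2 fold changes 0.21 and 0.37, edgeR adjusted p = 0.478 and 0.154). Of the T-box family, 9 of 15 tested members passed, 3 higher and 6 lower in M/Z (median log2 fold change -0.14).

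Ectoderm genes leaned upward in M/Z, with exceptions. The lean depended on the +/Z pools, being weaker without the second and stronger without the first. Of ectoderm and early neural genes, 22 of 56 tested members passed, 14 higher and 8 lower in M/Z (median log2 fold change 0.22); in the 8-library fit 11 passed, 9 of them higher. *otx1.S*, a homeobox gene of the anterior neural plate, had 10.3 and 12.9 CPM in M/Z and 1.38 and 1.29 CPM in +/Z (log2 fold change 3.11, SE 0.27, edgeR adjusted p = 2.75e-08). *cdh1.L*, which encodes E-cadherin, had 5.77 and 4.99 CPM in M/Z and 0.141 and 0 CPM in +/Z, and so was near its floor of detection in +/Z. *sox11.L*, an HMG-box gene of neural precursors, had 167 and 167 CPM in M/Z and 79.1 and 75.9 CPM in +/Z (log2 fold change 1.11, SE 0.14, edgeR adjusted p = 3.04e-06). Forkhead genes of the ectoderm split, with *foxi1.S* at 1.21 and 2.06 CPM in M/Z and 5.33 and 6.68 CPM in +/Z and *foxi4.1.S* at 1.78 and 2.59 CPM in M/Z and 0.671 and 0.459 CPM in +/Z. Both passed, in opposite directions (log2 fold changes -1.88 and 1.93), and *foxi1.S* was lost in the 8-library fit (adjusted p = 0.0705). *sox3.S*, a maternal ectoderm factor, had 695 and 724 CPM in M/Z and 768 and 695 CPM in +/Z and did not pass (edgeR adjusted p = 0.837).

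Genes of the maternal store differed in both directions. Of pluripotency factors, 10 of 35 tested members passed, 6 higher and 4 lower in M/Z (median log2 fold change 0.09; 8 higher and 3 lower with library totals). *pou5f3.3.L*, a maternal relative of mammalian Oct4, had 321 and 390.4 CPM in M/Z and 695 and 457 CPM in +/Z (log2 fold change -0.70, SE 0.17, edgeR adjusted p = 0.00354; adjusted p = 0.197 in the 8-library fit and 0.137 without the first +/Z pool). *tet3.L*, a DNA hydroxymethylase, had 38.4 and 28.2 CPM in M/Z and 12 and 11.6 CPM in +/Z (log2 fold change 1.5, SE 0.19, edgeR adjusted p = 5.19e-06). Of germ plasm and vegetally localised RNAs, 18 of 49 tested members passed, 5 higher and 13 lower in M/Z (median log2 fold change -0.11). *grip2.L*, a germ plasm RNA, had 94.7 and 85.5 CPM in M/Z and 244 and 249 CPM in +/Z (log2 fold change -1.45, SE 0.14, edgeR adjusted p = 8e-08). *velo1.L* and *gdf1.L*, localised to the vegetal cortex of the oocyte, overlapped between genotypes, the latter at 132 and 118 CPM in M/Z and 125 and 147 CPM in +/Z (edgeR adjusted p = 0.57). Of oocyte coat and egg secretory genes, 13 of 39 tested members passed, 5 higher and 8 lower in M/Z (median log2 fold change -0.12), with *zp3.S*, an egg coat protein, higher by a log2 fold change of 0.94 and *zpy1.S* lower by -1.63.

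Most ligands of the TGF-β family that passed were lower in M/Z. Of the TGF-β family ligands, 20 of 37 tested members passed, 4 higher and 16 lower in M/Z (median log2 fold change -0.34), 13 of the lower members by at least 2-fold. In the 8-library fit 7 members passed, 1 higher and 6 lower. *amh.S*, anti-Müllerian hormone, had 56.7 and 57.8 CPM in M/Z and 0.212 and 0.167 CPM in +/Z (log2 fold change 8.20, SE 0.28, edgeR adjusted p = 3.33e-14). *inhbc.2.S*, an inhibin β subunit, had 0 and 0 CPM in M/Z and 5.36 and 5.64 CPM in +/Z. Each was at or close to 0 in one genotype and plainly present in the other. Of Smads and TGF-β receptors, 16 of 50 tested members passed, 10 higher and 6 lower in M/Z (median log2 fold change 0.04; 14 higher and 5 lower with library totals); the largest was *tgfbr2.S*, a type II receptor, at 2.06, which did not pass in the 8-library fit (adjusted p = 0.0717).

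Among Wnt ligands, 4 of 11 tested members passed, 3 higher and 1 lower in M/Z (median log2 fold change -0.05). *wnt5a.L*, a ligand of β-catenin-independent signalling, had 7.65 and 7.39 CPM in M/Z and 0.635 and 0.501 CPM in +/Z (log2 fold change 3.71, SE 0.33, edgeR adjusted p = 3.42e-08), and *wnt5a.S* had 21.4 and 21.5 CPM in M/Z and 11.5 and 11.8 CPM in +/Z (log2 fold change 0.88, SE 0.19, edgeR adjusted p = 0.00116). Both copies lay higher in M/Z, though *wnt5a.S* was lost in the 8-library fit (adjusted p = 0.095). Of Wnt receptors and secreted modulators, 24 of 60 tested members passed, 11 higher and 13 lower in M/Z (median log2 fold change -0.03; 14 higher and 10 lower with library totals). *sfrp1.L*, a secreted Wnt inhibitor, had 7.1 and 6.68 CPM in M/Z and 0.0353 and 0.292 CPM in +/Z; *ror1.L*, a receptor for Wnt5a, had 3.49 and 2.95 CPM in M/Z and 0.424 and 0.501 CPM in +/Z; and *lgr5.S*, an R-spondin receptor, had 2.96 and 2.46 CPM in M/Z and 0.282 and 0.125 CPM in +/Z. All 3 passed, higher in M/Z, with log2 fold changes of 5.44, 2.80 and 3.67. *fzd6.S*, a Frizzled receptor, was lower, at 0.681 and 0.554 CPM in M/Z and 7.24 and 6.43 CPM in +/Z (log2 fold change -3.45, SE 0.33, edgeR adjusted p = 8.52e-08). Inside the cell, 16 of 60 tested members passed, 8 higher and 8 lower in M/Z (median log2 fold change -0.01). *ctnnb1.S*, β-catenin itself, had 409 and 476 CPM in M/Z and 655 and 639 CPM in +/Z (log2 fold change -0.55, SE 0.14, edgeR adjusted p = 0.00416) and *ppp2r5b.S*, a phosphatase regulatory subunit, had 90.2 and 63.1 CPM in M/Z and 9.57 and 12.2 CPM in +/Z (log2 fold change 2.82, SE 0.19, edgeR adjusted p = 7.8e-10). *dvl1.L*, a Dishevelled gene, was higher by a log2 fold change of 2.35. Of the planar polarity and gastrulation movement genes, 18 of 57 tested members passed, 8 higher and 10 lower in M/Z (median log2 fold change -0.04; 11 higher and 6 lower with library totals), among them *sdc4.L*, a membrane proteoglycan, higher by a log2 fold change of 1.23.

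Genes of other signalling pathways differed in both directions. The shares passing were 27.6% for FGF, 33.8% for Notch, 35.7% for retinoic acid and 37.3% for ephrin, semaphorin and plexin genes, beside 31% of all genes tested. Of FGF pathway genes, 21 of 76 tested members passed, 11 higher and 10 lower in M/Z (median log2 fold change -0.02; 13 higher and 6 lower with library totals). *fgf13.S*, an intracellular FGF homologue, had 31.4 and 33.9 CPM in M/Z and 2.33 and 4.09 CPM in +/Z and *flrt2.S*, a membrane protein, had 4.51 and 5.05 CPM in M/Z and 0.424 and 0.292 CPM in +/Z. Of the Notch pathway, 22 of 65 tested members passed, 13 higher and 9 lower in M/Z (median log2 fold change -0.02; 16 higher and 6 lower with library totals), with the ligand *dll4.L* and the target *hes5.1.L* higher by 2.02 and 2.22 on the log2 scale, neither in the 8-library fit (adjusted p = 0.132 and 0.119). Of retinoic acid genes, 10 of 28 tested members passed, 3 higher and 7 lower in M/Z (median log2 fold change -0.05). *cyp26c1.L*, which breaks retinoic acid down, and *aldh1a3.L*, which makes it, were both lower (-2.46 and -2.17), the latter not in the 8-library fit (adjusted p = 0.0786). Of ephrin, semaphorin and plexin genes, 25 of 67 tested members passed, 15 higher and 10 lower in M/Z (median log2 fold change 0.12). *sema3c.L*, a guidance ligand, had 8.31 and 6.52 CPM in M/Z and 0.212 and 0.543 CPM in +/Z, and *plxnb1.L*, a semaphorin receptor, had 5.84 and 7.08 CPM in M/Z and 0.424 and 0.668 CPM in +/Z; both were higher in M/Z.

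Receptors at the cell surface leaned upward. Of G protein-coupled receptors, 65 of 137 tested members passed, 43 higher and 22 lower in M/Z (median log2 fold change 0.25). *chrm1.L*, a muscarinic acetylcholine receptor, had 10.6 and 11.2 CPM in M/Z and 0.141 and 0.167 CPM in +/Z (log2 fold change 6.12, SE 0.38, edgeR adjusted p = 1.34e-10), and *mc1r.L*, a melanocortin receptor, had 10.1 and 9.45 CPM in M/Z and 0.282 and 0.292 CPM in +/Z (log2 fold change 5.07, SE 0.35, edgeR adjusted p = 7.29e-10). Of receptor tyrosine kinases and growth factors outside the FGF family, 30 of 73 tested members passed, 18 higher and 12 lower in M/Z (median log2 fold change 0.27), among them the receptor *ltk.S* at 13.9 and 14.7 CPM in M/Z and 0.247 and 0.376 CPM in +/Z. Of ion channels, 58 of 149 tested members passed, 35 higher and 23 lower in M/Z (median log2 fold change 0.20). *gabrr3.L*, a GABA receptor subunit, had 5.45 and 5.97 CPM in M/Z and 0.282 and 0 CPM in +/Z and *ano9.L*, an anoctamin, had 0.472 and 0.277 CPM in M/Z and 23.8 and 23.8 CPM in +/Z. Of immune and antigen presentation genes, 59 of 179 tested members passed, 39 higher and 20 lower in M/Z (median log2 fold change 0.10). The receptor and channel genes were at low levels in both genotypes or in one. In those named no pool overlapped the other genotype, as in 65.7% of all genes tested.

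Transcription factor families differed in direction. Of forkhead genes, 24 of 62 tested members passed, 5 higher and 19 lower in M/Z (median log2 fold change -0.27), with 14 of the lower members at least 2-fold, among them *foxn4.S* at 1.07 and 1.2 CPM in M/Z and 9.11 and 6.35 CPM in +/Z. In the 8-library fit 10 of the 24 passed. Of Sox genes, 8 of 25 tested members passed, 2 higher and 6 lower in M/Z (median log2 fold change -0.08). Of nuclear receptors, 18 of 59 tested members passed, 8 higher and 10 lower in M/Z (median log2 fold change -0.12). *hnf4g.L*, a nuclear receptor of the liver and gut, had 0.393 and 0.339 CPM in M/Z and 49.0 and 76.8 CPM in +/Z (log2 fold change -7.40, SE 0.29, edgeR adjusted p = 2e-13), and *rora.L*, another, had 3.93 and 4.03 CPM in M/Z and 0.6 and 0.668 CPM in +/Z (log2 fold change 2.65, SE 0.37, edgeR adjusted p = 1.42e-05). Of Hox, Irx, Pax and other homeobox genes, 23 of 83 tested members passed, 12 higher and 11 lower in M/Z (median log2 fold change 0.13; 17 higher and 10 lower with library totals). *hoxb3.L* had 2.28 and 3.32 CPM in M/Z and 0.212 and 0.0418 CPM in +/Z. Of zinc finger genes named znf, zbtb or zfp, 81 of 282 tested members passed, 52 higher and 29 lower in M/Z (median log2 fold change 0.09). That share, 28.7%, was near the 31% of all genes tested.

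Chromatin genes that passed lay on both sides, at shares near the 31% of all genes tested (32.8% of the enzymes and 34.5% of the histones). Of histone and DNA methylation enzymes, 40 of 122 tested members passed, 16 higher and 24 lower in M/Z (median log2 fold change -0.12; 17 higher and 14 lower with library totals). *kdm7a.L*, a histone demethylase, had 1.23 and 0.954 CPM in M/Z and 12.9 and 12.1 CPM in +/Z (log2 fold change -3.51, SE 0.27, edgeR adjusted p = 4.45e-09) and *tet2.S*, a DNA hydroxymethylase, had 0.97 and 0.677 CPM in M/Z and 7.13 and 6.89 CPM in +/Z (log2 fold change -3.07, SE 0.32, edgeR adjusted p = 2.83e-07). Of histones, 10 of 29 tested members passed, 8 higher and 2 lower in M/Z (median log2 fold change 0.11). *h1f0.S*, a linker histone, had 35.3 and 37.4 CPM in M/Z and 7.73 and 9.9 CPM in +/Z (log2 fold change 2.05, SE 0.19, edgeR adjusted p = 6.2e-08), and both copies of *h2afy2*, a macroH2A variant, were higher, *h2afy2.S* at 9.65 and 9.82 CPM in M/Z and 2.15 and 2.8 CPM in +/Z and *h2afy2.L* had 2.1 and 1.82 CPM in M/Z and 0.318 and 0.209 CPM in +/Z.

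Many adhesion and matrix genes passed, 47.9% of the first list below and 46.1% of the second, beside 31% of all genes tested. Of cadherins, protocadherins and catenins, 35 of 73 tested members passed, 11 higher and 24 lower in M/Z (median log2 fold change -0.24; 13 higher and 18 lower with library totals). *dsg2.S*, a desmosomal cadherin, had 3.96 and 4.56 CPM in M/Z and 74.3 and 67.7 CPM in +/Z (log2 fold change -4.06, SE 0.18, edgeR adjusted p = 1.55e-12), and *dsg4.L*, another, had 0.367 and 0.246 CPM in M/Z and 7.8 and 9.61 CPM in +/Z (log2 fold change -4.79, SE 0.36, edgeR adjusted p = 2.36e-09). Both were lower in M/Z, opposite to *cdh1.L*. Of matrix and integrin genes, 47 of 102 tested members passed, 26 higher and 21 lower in M/Z (median log2 fold change 0.16). The gene that the RefSeq table names *col5a2.S*, a fibrillar collagen, had 0.472 and 0.123 CPM in M/Z and 59.8 and 52.8 CPM in +/Z (log2 fold change -7.49, SE 0.31, edgeR adjusted p = 3.1e-13), and that named *lamb2.S*, a laminin chain, had 23.6 and 21.4 CPM in M/Z and 0 and 0 CPM in +/Z. Of keratins, claudins and other epithelial genes, 25 of 54 tested members passed, 11 higher and 14 lower in M/Z (median log2 fold change -0.21). *cldn5.S*, a tight junction protein, had 1.65 and 2.03 CPM in M/Z and 0.671 and 0.125 CPM in +/Z (log2 fold change 2.15, SE 0.55, edgeR adjusted p = 0.0052; adjusted p = 0.0996 in the 8-library fit).

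The cytoskeleton lists were near the background. Of microtubule, kinesin and dynein genes, 61 of 170 tested members passed, 26 higher and 35 lower in M/Z (median log2 fold change -0.11; 37 higher and 26 lower with library totals). *kif19.S*, a microtubule-depolymerising kinesin of cilia, had 2.46 and 2.34 CPM in M/Z and 25.4 and 24.3 CPM in +/Z (log2 fold change -3.37, SE 0.22, edgeR adjusted p = 3.17e-10), and *mapre2.S*, an end-binding protein, had 0.262 and 0.431 CPM in M/Z and 3.21 and 2.42 CPM in +/Z (log2 fold change -3.03, SE 0.45, edgeR adjusted p = 3.33e-05). *kif3b.S*, a kinesin-2 motor subunit, was higher by a small amount, at 141 and 142 CPM in M/Z and 86.8 and 100 CPM in +/Z (log2 fold change 0.60, SE 0.14, edgeR adjusted p = 0.0024). Of actin and myosin genes, 32 of 120 tested members passed, 11 higher and 21 lower in M/Z (median log2 fold change -0.09; 17 higher and 18 lower with library totals). *myo7a.L*, an unconventional myosin, had 5.43 and 6.03 CPM in M/Z and 0.459 and 0.292 CPM in +/Z (log2 fold change 3.90, SE 0.38, edgeR adjusted p = 1.13e-07). Of small GTPase regulators and Rab proteins, 88 of 333 tested members passed, 54 higher and 34 lower in M/Z (median log2 fold change -0.03). *rab30.S*, a Golgi Rab, had 6.08 and 7.91 CPM in M/Z and 0.459 and 0.585 CPM in +/Z.

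Cell cycle genes that passed lay on both sides, at shares near the 31% of all genes tested. These were 33.8% of cyclins, CDKs and checkpoint genes and 32.5% of DNA replication genes. Of cyclins, CDKs and checkpoint genes, 77 of 228 tested members passed, 39 higher and 38 lower in M/Z (median log2 fold change -0.10). *ccnb1.S*, mitotic cyclin B1, had 391 and 480.4 CPM in M/Z and 718 and 836 CPM in +/Z (log2 fold change -0.83, SE 0.14, edgeR adjusted p = 0.000161), and *wee1.S*, the kinase that restrains CDK1, had 23.6 and 30.7 CPM in M/Z and 72.1 and 64.9 CPM in +/Z (log2 fold change -1.34, SE 0.16, edgeR adjusted p = 2.79e-06). *ccna1.L*, the embryonic cyclin A, overlapped, at 841 and 966 CPM in M/Z and 887 and 977 CPM in +/Z. *cdk15.L*, a cyclin-dependent kinase, was close to 0 in +/Z, at 50.4 and 46.9 CPM in M/Z and 0.247 and 0.292 CPM in +/Z. Cyclin B1 did not pass in the 8-library fit (adjusted p = 0.0851 for *ccnb1.S*). Of DNA replication genes, 26 of 80 tested members passed, 10 higher and 16 lower in M/Z (median log2 fold change -0.08; 12 higher and 11 lower with library totals), led by *mcm7.S*, a subunit of the replicative helicase, at 124 and 168 CPM in M/Z and 415 and 375 CPM in +/Z (log2 fold change -1.43, SE 0.15, edgeR adjusted p = 4.55e-07) and *mcm9.L*, a related helicase, at 44.2 and 35.1 CPM in M/Z and 16.2 and 17.6 CPM in +/Z (log2 fold change 1.23, SE 0.18, edgeR adjusted p = 1.97e-05).

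Of nucleotide synthesis enzymes, 26 of 82 tested members passed, 9 higher and 17 lower in M/Z (median log2 fold change -0.14; 14 higher and 14 lower with library totals). *rrm2.1.L*, a small subunit of ribonucleotide reductase, had 3.2 and 5.2 CPM in M/Z and 260.1 and 259 CPM in +/Z (log2 fold change -5.96, SE 0.21, edgeR adjusted p = 3.33e-14). The other small subunit genes did not follow, with *rrm2.2.S* at 693 and 843 CPM in M/Z and 859 and 862 CPM in +/Z and *rrm2.2.L* at 511 and 626 CPM in M/Z and 525 and 528 CPM in +/Z, neither past the threshold. The large subunit *rrm1.S* was lower by a smaller amount, at 32.2 and 34.1 CPM in M/Z and 54.6 and 61.9 CPM in +/Z (log2 fold change -0.81, SE 0.15, edgeR adjusted p = 0.000381). In purine salvage, *pnp.S*, purine nucleoside phosphorylase, had 2.41 and 2.25 CPM in M/Z and 28.8 and 29.9 CPM in +/Z (log2 fold change -3.65, SE 0.22, edgeR adjusted p = 7.36e-11), and *ada.S*, adenosine deaminase, had 3.77 and 3.63 CPM in M/Z and 19.0 and 17.5 CPM in +/Z (log2 fold change -2.30, SE 0.22, edgeR adjusted p = 7.34e-08). Both salvage enzymes were lower in M/Z with close replicates.

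Ribosomal protein genes leaned upward in M/Z under each scaling. Of cytoplasmic ribosomal protein genes, 42 of 138 tested members passed, 40 higher and 2 lower in M/Z (median log2 fold change 0.39), so that the share passing was close to the background but 40 of 42 lay on one side. *rpl8.L*, of the large subunit, had 5.11 and 6.77 CPM in M/Z and 1.59 and 1.55 CPM in +/Z (log2 fold change 1.92, SE 0.30, edgeR adjusted p = 5.96e-05), and *rpl22.L* had 25.3 and 31.8 CPM in M/Z and 10.7 and 12.3 CPM in +/Z (log2 fold change 1.31, SE 0.19, edgeR adjusted p = 2.59e-05). This count depended on the second M/Z pool, for without it 12 genes passed, 9 higher and 3 lower, and without the first M/Z pool 56 passed, 55 of them higher. In the 8-library fit 7 passed. Of translation factors and tRNA synthetases, 46 of 248 tested members passed, 15 higher and 31 lower in M/Z (median log2 fold change -0.09; 23 higher and 22 lower with library totals). *iars.S*, isoleucyl-tRNA synthetase, had 15.4 and 12.4 CPM in M/Z and 59.5 and 59.9 CPM in +/Z (log2 fold change -2.10, SE 0.17, edgeR adjusted p = 7.97e-09). Of RNA decay, polyadenylation and RNA-binding regulators, 36 of 162 tested members passed, 11 higher and 25 lower in M/Z (median log2 fold change -0.02; 19 higher and 18 lower with library totals), and the copies of *zfp36*, which promotes mRNA decay, went in opposite directions, *zfp36.L* at 0.0786 and 0.277 CPM in M/Z and 2.12 and 2.13 CPM in +/Z and *zfp36.S* at 2.28 and 2.68 CPM in M/Z and 0.6 and 0.376 CPM in +/Z.

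Protein folding and respiration genes passed at smaller shares, 23.2% and 13.2%, than the 31% of all genes tested. Proteasome and ubiquitin ligase genes passed at 27.7%, near that 31%. Of heat shock proteins and co-chaperones, 35 of 151 tested members passed, 9 higher and 26 lower in M/Z (median log2 fold change -0.14; 13 higher and 21 lower with library totals); without the first M/Z pool 23 passed, 16 of them lower. *hspb1.S*, a small heat shock protein, had 0.655 and 0.862 CPM in M/Z and 4.09 and 4.85 CPM in +/Z (log2 fold change -2.56, SE 0.35, edgeR adjusted p = 1.35e-05), and *hsp90aa1.1.L*, an Hsp90, had 5.03 and 3.94 CPM in M/Z and 0.741 and 1.25 CPM in +/Z (log2 fold change 2.18, SE 0.36, edgeR adjusted p = 8.68e-05). Of proteasome and ubiquitin ligase genes, 134 of 484 tested members passed, 64 higher and 70 lower in M/Z (median log2 fold change -0.04; 84 higher and 54 lower with library totals). Of oxidative phosphorylation genes, 22 of 167 tested members passed, 10 higher and 12 lower in M/Z (median log2 fold change -0.03; 15 higher and 8 lower with library totals), the lowest share passing of the 56 lists (13.2%). Its split turned with single pools, at 13 higher and 3 lower without the first M/Z pool and 7 higher and 17 lower without the second. Even so, *ndufa10.L*, a complex I subunit, had 3.67 and 4.25 CPM in M/Z and 13.6 and 15.7 CPM in +/Z (log2 fold change -1.89, SE 0.23, edgeR adjusted p = 2.06e-06), and the gene named *uqcrh.S*, of complex III, had 34 and 47.5 CPM in M/Z and 9.32 and 7.02 CPM in +/Z (log2 fold change 2.31, SE 0.21, edgeR adjusted p = 3.98e-08).

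Carbon metabolism included genes on both sides. Of glycolysis and pentose phosphate enzymes, 28 of 76 tested members passed, 11 higher and 17 lower in M/Z (median log2 fold change -0.23; 13 higher and 13 lower with library totals). *hk2.S*, hexokinase, had 5.01 and 9.02 CPM in M/Z and 41.2 and 39.8 CPM in +/Z (log2 fold change -2.53, SE 0.23, edgeR adjusted p = 3.42e-08), and *gapdh.L*, glyceraldehyde-3-phosphate dehydrogenase, had 7.68 and 9.79 CPM in M/Z and 4.16 and 2.63 CPM in +/Z (log2 fold change 1.35, SE 0.27, edgeR adjusted p = 0.000665). Of mitochondrial carriers, 16 of 54 tested members passed, 3 higher and 13 lower in M/Z (median log2 fold change -0.20; 5 higher and 9 lower with library totals), with both copies of *slc25a24*, a calcium-sensitive ATP carrier, lower (*slc25a24.S* by a log2 fold change of -3.26 and *slc25a24.L* by -1.59, the latter not in the 8-library fit, adjusted p = 0.143). Of amino acid and one-carbon enzymes, 31 of 89 tested members passed, 12 higher and 19 lower in M/Z (median log2 fold change -0.13; 18 higher and 12 lower with library totals). *ass1.S*, argininosuccinate synthase, had 6.63 and 6.59 CPM in M/Z and 0.0353 and 0.0418 CPM in +/Z, and *arg2.S*, mitochondrial arginase, had 6 and 5.82 CPM in M/Z and 19.5 and 20.3 CPM in +/Z; these enzymes of arginine metabolism differed in opposite directions.

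Lipid genes gave a few large differences. The shares passing were 28.7% for cholesterol, 34.1% for fatty acid and 31.6% for glycosyltransferase genes, near the 31% of all genes tested. Of cholesterol synthesis and storage genes, 25 of 87 tested members passed, 15 higher and 10 lower in M/Z (median log2 fold change 0.07). *soat1.L*, which esterifies cholesterol, had 1.65 and 1.79 CPM in M/Z and 52.1 and 50.9 CPM in +/Z (log2 fold change -4.90, SE 0.21, edgeR adjusted p = 5.57e-13), and its homeolog *soat1.S* had 113 and 104 CPM in M/Z and 87.1 and 100 CPM in +/Z and did not pass (edgeR adjusted p = 0.257). Of fatty acid, phospholipid and triglyceride enzymes, 61 of 179 tested members passed, 27 higher and 34 lower in M/Z (median log2 fold change -0.04). *acad11.L*, an acyl-CoA dehydrogenase, had 0.367 and 0.4 CPM in M/Z and 7.62 and 6.27 CPM in +/Z (log2 fold change -4.17, SE 0.35, edgeR adjusted p = 1.61e-08). Of glycosyltransferases and glycan sulfotransferases, 61 of 193 tested members passed, 31 higher and 30 lower in M/Z (median log2 fold change 0.01; 41 higher and 25 lower with library totals). *man1c1.S*, a Golgi mannosidase, had 103 and 87.6 CPM in M/Z and 2.19 and 3.76 CPM in +/Z (log2 fold change 5.02, SE 0.22, edgeR adjusted p = 1.05e-12), and *st3gal1.S*, a sialyltransferase, had 21.0 and 22.1 CPM in M/Z and 0.424 and 0.459 CPM in +/Z (log2 fold change 5.6, SE 0.29, edgeR adjusted p = 8.4e-12). Of detoxification enzymes, 49 of 142 tested members passed, 17 higher and 32 lower in M/Z (median log2 fold change -0.14).

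Transporters passed at shares near the 31% of all genes tested, 34.6% of the first list below and 29.6% of the second. Of membrane solute carriers other than slc25, 103 of 298 tested members passed, 49 higher and 54 lower in M/Z (median log2 fold change -0.06). *slc1a1.L* and *slc1a3.S*, both glutamate transporters, lay on opposite sides, *slc1a1.L* at 62.8 and 58.9 CPM in M/Z and 0.0706 and 0 CPM in +/Z and *slc1a3.S* at 0.157 and 0.123 CPM in M/Z and 11.4 and 11.3 CPM in +/Z. Of ABC transporters and ion pumps, 34 of 115 tested members passed, 17 higher and 17 lower in M/Z (median log2 fold change -0.02; 19 higher and 12 lower with library totals). *atp6a1*, listed without a homeolog suffix, had 0.288 and 0.308 CPM in M/Z and 11.5 and 10 CPM in +/Z. Of protease inhibitors, 15 of 32 tested members passed, 6 higher and 9 lower in M/Z (median log2 fold change -0.22). The gene named *itih4.S*, an inter-α-trypsin inhibitor heavy chain, had 44.8 and 43.6 CPM in M/Z and 0.106 and 0.0418 CPM in +/Z (log2 fold change 9.10, SE 0.34, edgeR adjusted p = 7.98e-14). Of secreted and membrane proteases, 25 of 87 tested members passed, 10 higher and 15 lower in M/Z (median log2 fold change -0.11), with *mmp24.S*, a membrane matrix metalloproteinase, higher by 2.01 on the log2 scale.

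**Figure D3:**
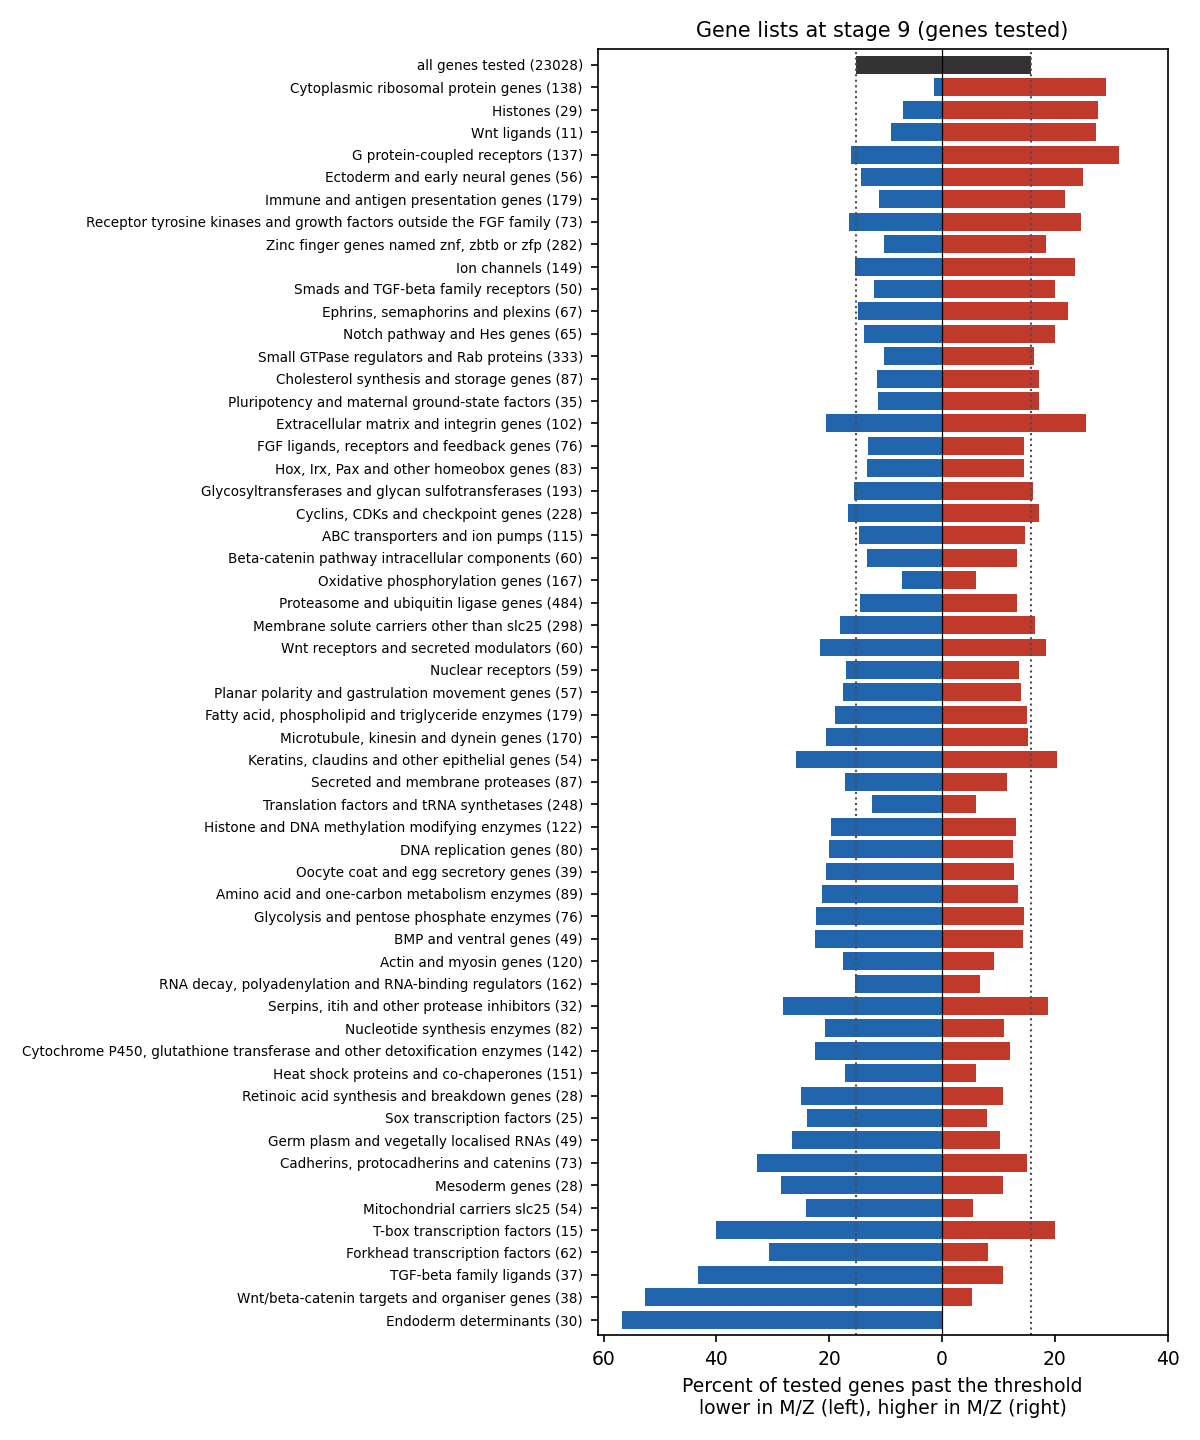
Share of the tested members of 56 gene lists, in percent, that were lower (blue, to the left) or higher (red, to the right) in M/Z at an adjusted p under 0.05, ordered by the difference of the shares, with the number tested in brackets. The black bar and dotted lines give all genes tested, at 15.3% lower and 15.7% higher; endoderm determinants and organiser genes stand at the lower end and ribosomal protein genes at the upper end.

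Grouping by the letters of the gene symbol, among 80 stems with at least 20 genes tested, described families without a chosen list. The stems with the highest share passing were cdh (cadherins, 13 of 21), col (collagens, 13 of 23), fbxl (F-box proteins, 11 of 20), aldh (aldehyde dehydrogenases, 11 of 21) and polr (RNA polymerase subunits, 15 of 29). Those with the lowest were cox (cytochrome oxidase subunits and assembly genes, 3 of 35), dnajc (co-chaperones, 3 of 32), arl (Arf-like GTPases, 3 of 32), bcl (2 of 21), and psmd (proteasome subunits) and abhd (α/β hydrolases), each with 3 of 24. The shares were 51.7% to 61.9% in the first group and 8.57% to 12.5% in the second, beside 31% of all genes tested. The stems named are the extremes of the 80, chosen by that share, and were not tested as groups. In the first group the genes did not share a direction, with 7 of the 13 cadherins and 6 of the 13 collagens higher in M/Z.

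The largest differences with a symbol, at a mean of 5 CPM or more, were near-complete. On the higher side, apart from the genes near absent in +/Z described below, *il5ra.L*, the interleukin 5 receptor α chain, had 223 and 230.1 CPM in M/Z and 1.98 and 1.21 CPM in +/Z (log2 fold change 7.13, SE 0.21, edgeR adjusted p = 1.36e-14). *bcam.L*, a laminin-binding adhesion molecule, had 88.7 and 86.4 CPM in M/Z and 0.635 and 0.627 CPM in +/Z (log2 fold change 7.11, SE 0.23, edgeR adjusted p = 1.7e-14). *traf3ip3.S*, an adaptor protein, had 64.6 and 60.6 CPM in M/Z and 0.176 and 0.334 CPM in +/Z, and *myo3a.L*, an unconventional myosin, had 53.4 and 51.7 CPM in M/Z and 0.318 and 0.125 CPM in +/Z. The other 8 of the 12 were *amh.S*, *cdk15.L*, *slc1a1.L*, *slc24a3.S*, *tnfrsf8.S*, *ugt3a2.L*, *lmo2.L* and *tbx6.S*. On the lower side, *hnf4g.L* was joined by *tox2.L*, an HMG-box gene, at 0.183 and 0.0923 CPM in M/Z and 23.3 and 20.8 CPM in +/Z and *ubxn8.L*, of the endoplasmic reticulum, at 0.0262 and 0.154 CPM in M/Z and 18.7 and 19.3 CPM in +/Z. The list also held *dnaaf5.L*, *hsh2d.S*, *myot.L*, *sema3b.L*, *pla2g16.S*, *prdx1.S*, *urod.S* and *acsl6.L*. All 24 passed in the 8-library fit too. That fit compares the same stage 9 libraries, and the genes were chosen by their large difference there, so this adds no support.

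A set of 245 genes was all but missing from one genotype. With at most 3 counts in every library of one genotype and at least 30 in every library of the other, 128 genes were near absent in +/Z and 117 in M/Z. In +/Z, *slc1a1.L* had 2397 and 1913 counts in the M/Z pools and 2 and 0 counts in the +/Z pools, which is at least 526-fold higher in M/Z against the floor of 3 counts per library. *tnfrsf8.S*, a tumour necrosis factor receptor, had 2101 and 1528 counts in the M/Z pools and 0 and 0 counts in the +/Z pools (at least 442-fold), and *ugt3a2.L*, a glycosyltransferase, had 1779 and 1584 counts in the M/Z pools and 0 and 0 counts in the +/Z pools (at least 413-fold). In M/Z, *dnaaf5.L*, an assembly factor of ciliary dynein, had 3 and 0 counts in the M/Z pools and 2045 and 2063 counts in the +/Z pools, at least 926-fold lower than in +/Z. *hsh2d.S*, an adaptor of lymphocytes, had 0 and 0 counts in the M/Z pools and 947 and 831 counts in the +/Z pools (at least 399-fold lower), and *urod.S*, an enzyme of haem synthesis, had 0 and 0 counts in the M/Z pools and 434 and 246 counts in the +/Z pools (at least 149.7-fold lower). These genes are in effect present in one set of pools and not detected in the other.

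The stage 10.5 libraries, which had no part in choosing these genes, were then read for the same genes. Of the 128 genes near absent in +/Z, 125 were also higher in M/Z at stage 10.5, 95 with an adjusted p under 0.05 in the 8-library edgeR fit, and 76 again had at most 3 counts in both +/Z libraries, 48 of these with at least 30 in both M/Z libraries. Of all 23028 genes, 7.2% passed as higher at stage 10.5 and 6.6% as lower. Of the 117 near absent in M/Z, 116 were lower in M/Z at stage 10.5, 99 with an adjusted p under 0.05, and 78 again had at most 3 counts in both M/Z libraries, 42 of these with at least 30 in both +/Z libraries. In each set 0 genes passed in the other direction. The 8-library fit also draws its spread from the stage 9 libraries. Whether the same females gave the embryos of both stages is not named, so this is no independent replication across mothers.

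The other homeolog was looked up only for genes with a symbol in the count table. These were 51 of the 117 genes near absent in M/Z and 45 of the 128 near absent in +/Z. For 19 of those 51 genes it was tested, and 13 did not pass, a share near that of all genes tested. *dnaaf5.S* had 2430 and 1517 counts in the M/Z pools and 1807 and 1493 counts in the +/Z pools (log2 fold change -0.19, edgeR adjusted p = 0.389), *urod.L* 835 and 862 counts in the M/Z pools and 590 and 381 counts in the +/Z pools (0.40, 0.124), and *adh5.L*, of the alcohol dehydrogenase that clears formaldehyde, 1332 and 1327 counts in the M/Z pools and 1173 and 1106 counts in the +/Z pools (-0.21, 0.336). For 3 genes the other copy was also lower, as for *cntnap4*, a neurexin-related gene whose copies were both near absent in M/Z. For 9 of the 45 genes with a symbol near absent in +/Z the other copy was tested, and 4 passed in the same and 4 in the opposite direction. *slc40a1*, the iron exporter ferroportin, had both copies near absent in +/Z, with *slc40a1.L* at 60 and 33 counts in the M/Z pools and 0 and 3 counts in the +/Z pools and *slc40a1.S* at 109 and 136 counts in the M/Z pools and 2 and 0 counts in the +/Z pools. *RSEM* divides reads between copies that match both, so counts of near-identical copies are uncertain.

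**Figure D4:**
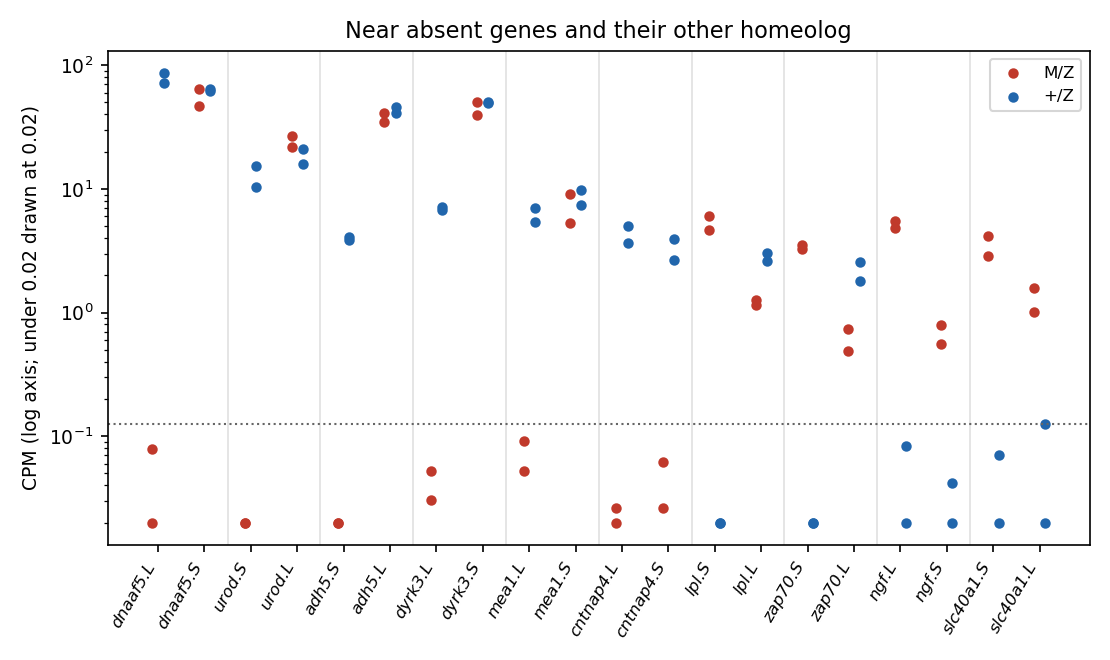
Level in CPM (log axis, with values under 0.02 drawn at 0.02) of 10 near absent genes, each followed by its other homeolog, in the M/Z (red) and +/Z (blue) pools. The dotted line is the highest of the 4 libraries' levels of 3 counts, 0.125 CPM; for *dnaaf5*, *urod*, *adh5*, *dyrk3* and *mea1* the other copy is present at similar levels in both genotypes.

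Across all genes, homeolog pairs were described by which copies passed, with no test of the .L copy against the .S copy. A pair with a single copy past the threshold is therefore not shown to differ between its copies. Both copies were tested for 4295 pairs, and the median absolute difference between their log2 fold changes was 0.393. In 435 pairs both copies passed, 307 in the same direction (70.6%; 161 higher and 146 lower in M/Z) and 128 in opposite directions. In 1588 pairs only one copy passed, 748 on L and 840 on S, and 493 of these copies differed by at least 2-fold. For 231 of those 493 the other copy lay within a log2 fold change of 0.25 of no difference. Calls were about as frequent on both subgenomes, with 29.3% of 8994 .L genes and 30.7% of 6512 .S genes.

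By the fitted fold changes, the widest opposite pairs were *rflb*, *lpl*, *ghr* and *zap70*, though for those with a copy at 0 counts the fitted value is no measure of size. *ghr.L*, of the growth hormone receptor, had 0.472 and 0.154 CPM in M/Z and 12.4 and 14.2 CPM in +/Z and *ghr.S* had 21.1 and 18.7 CPM in M/Z and 0.318 and 0.251 CPM in +/Z, so that *ghr.L* was close to 0 in M/Z and *ghr.S* in +/Z. *lpl.L*, of lipoprotein lipase, had 1.15 and 1.26 CPM in M/Z and 2.61 and 3.05 CPM in +/Z and *lpl.S* had 6 and 4.65 CPM in M/Z and 0 and 0 CPM in +/Z. *zap70.L*, of a T cell kinase, had 0.734 and 0.492 CPM in M/Z and 2.54 and 1.8 CPM in +/Z and *zap70.S* had 3.25 and 3.54 CPM in M/Z and 0 and 0 CPM in +/Z. *rflb.L*, of an actin regulator, had 2.33 and 3.23 CPM in M/Z and 1.24 and 0.835 CPM in +/Z and *rflb.S* had 0 and 0 CPM in M/Z and 4.59 and 6.77 CPM in +/Z. In all 8 genes the pools of the genotypes did not overlap, as in 65.7% of all genes tested. *lpl.L* was lost in the 8-library fit (adjusted p = 0.0623).

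**Figure D5:**
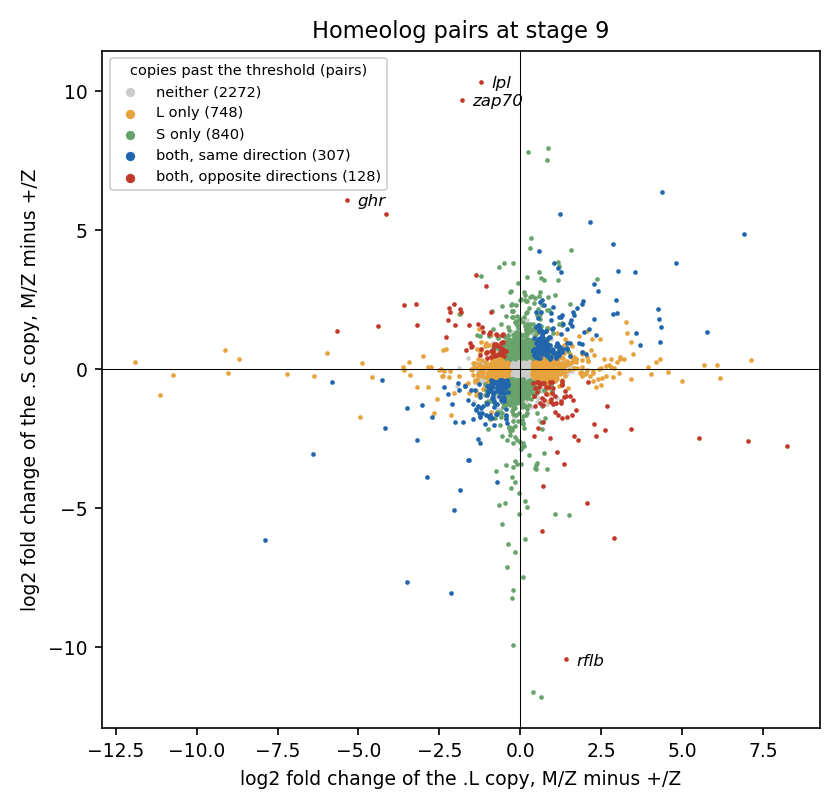
Log2 fold change between M/Z and +/Z of the .L copy (horizontal axis) against the .S copy (vertical axis) for 4295 homeolog pairs, coloured by which copies passed at an adjusted p under 0.05. In the 307 pairs in blue both copies passed with the same sign, and in the 128 in red with opposite signs. Orange marks the 748 pairs with only the .L copy past the threshold and green the 840 with only the .S copy.

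Genes next to *wnt11b.L* in the RefSeq gene order were counted as a group, with no test. Among the 50 tested genes within 25 places on either side, 23 passed (46%), 7 higher and 16 lower in M/Z, beside 31% of all genes tested. Of the 50, 11 passed with at least a 2-fold difference (22%), beside 16% of all genes tested. Their median log2 fold change was -0.24 over all 50. The next gene on one side, *efnb1.L*, an ephrin, had 28.0 CPM on average in M/Z and 33.0 in +/Z and did not pass (edgeR adjusted p = 0.351). The next tested gene on the other side, which has no symbol, had 73.9 CPM on average in M/Z and 98.6 in +/Z. It passed (log2 fold change -0.42, edgeR adjusted p = 0.0288). Among neighbours with a gene name, the largest falls stood farther off, with *gpr83.L*, a G protein-coupled receptor 9 places away, at 0.0262 and 0.0616 CPM in M/Z and 3.18 and 3.3 CPM in +/Z, and *mid2.L*, a ubiquitin ligase 20 places away, at a mean of 0.318 CPM in M/Z and 12.7 CPM in +/Z (log2 fold change -5.33). On the side away from *efnb1.L*, *gdpd2.L*, a phosphodiesterase 15 places from *wnt11b.L*, was higher in M/Z, at a mean of 9.72 and 2.06 CPM (log2 fold change 2.23). The order comes from a later assembly than the one the counts were made on. *efnb1.L*, the gene without a symbol, *mid2.L* and *gdpd2.L* were chosen after their values were seen.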

How the data were processed

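RNA of pooled embryos was sequenced from stranded mRNA libraries as paired-end reads. The authors processed the reads in version 3.0 of the CSBB pipeline, with *bowtie2* as aligner, the *X. laevis* assembly 9.2 as reference and *RSEM* (version 1.3.0 in the submitters' processing notes) for quantification. They deposited expected counts per gene, as whole numbers and not normalised, which were rounded to whole numbers as a safeguard that changed no value. The annotation and strand setting are not given in the sources used here, so overlapping and antisense genes cannot be told apart.

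The 4 stage 9 libraries were fitted with *edgeR* 4.0.16 (filterByExpr, TMM, glmQLFit, glmQLFTest, Benjamini-Hochberg adjustment, threshold 0.05); a script with these functions was first tested on simulated data. Total counts ranged from 24720921 to 37265579; the floor of 3 counts covers counting error only. Replicates differed beyond sampling noise, with a chi-square per degree of freedom of 19.4 in M/Z and 17.3 in +/Z. The common biological coefficient of variation was 0.138, and 0.229 over all 8 libraries. Each gene's spread was moderated toward that of other genes, with a weight of 17.8 degrees of freedom beside the 2 of its own pools. With 2 pools against 2, no exact permutation test can reach the threshold, and none was run.

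Genes were named by rule. Among genes with a symbol, a mean of at least 5 CPM and pools that did not overlap, these were the 12 highest and 12 lowest fold changes past the threshold. In each list they were up to 4 genes past the threshold at a mean of at least 1 CPM and members with a fixed role, of which a selection is printed. Some genes that the rule names are not reported here. Symbol stems with at least 20 genes, the 4 widest opposite homeolog pairs and *wnt11b.L* complete the rule; other homeologs of near absent genes were named after their values were seen. The members and the 56 lists were chosen with earlier results of these data known, and 7 list patterns were corrected after the table was read, because they matched unrelated symbols. Of 15545 LOC identifiers, 12362 matched RefSeq's assembly 10.1 table, which gave 3698 a symbol; it served for names and gene order only. Alternatives were other scalings and filters, *DESeq2* 1.42.0, robust estimation, all 8 libraries, summed homeologs, a replicate block, a test against a 2-fold change and leaving out each pool.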

Additional observations from a re-analysis of the deposited data

Results flagged for a closer look

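For 5 of the genes named above, the difference between genotypes at stage 9 changed by stage 10.5, by edgeR's test of the interaction in the fit of all 8 libraries. The change is the stage 10.5 difference minus the stage 9 difference in that fit, and the stage 9 fold changes given beside it come from the stage 9 fit. The fold change of *cdk15.L* was 7.48 at stage 9 and then 1.74 (change -5.73, edgeR adjusted p = 0.00645). For *st3gal1.S* the fold changes were 5.6 and 0.31 (change -5.28, edgeR adjusted p = 0.00645). For *plxnb1.L* they were 3.57 and -0.25 (change -3.81, edgeR adjusted p = 0.034), and for *hsp90aa1.1.L* 2.18 and -1.57 (change -3.75, edgeR adjusted p = 0.0204). *atp6a1* lay the other way, with -5.16 first and 0.38 later (change 5.54, edgeR adjusted p = 0.00645). Many of the genes named above were chosen by a large stage 9 difference, and the test contains those same stage 9 values. A smaller or reversed difference at stage 10.5 is therefore favoured by that choice. The share of all genes that passed this test is not given here.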

How the results depend on the processing

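With all 8 libraries fitted together 3040 genes passed (1530 higher and 1510 lower), 3000 of them among the 7130, and 1925 genes passed a test against a 2-fold change (glmTreat), beside 3686 by the point estimate. Both homeologs passed in 435 pairs, and in 100 with all 8 libraries. Leaving out each pool in turn gave 5102 to 6731 genes, and 3123 to 3685 with at least a 2-fold difference, the lone pool being assumed to vary like the pools of the other genotype. With library totals 7320 genes passed. The replicate number as a block gave 7095 genes and 3625 with at least a 2-fold difference. The deviations of same-numbered pools correlated across genes at -0.030. With 2 pools a genotype, this value cannot show whether same-numbered pools were handled together, which the labels do not state. Of 149 genes named above, 137 passed, and 19 of the 137 did not pass with all 8 libraries, in the same direction. *DESeq2* lost 1 of them, *gsc.L* (adjusted p = 0.101). Leaving out a pool lost up to 6: without the first +/Z pool those given above, without the first M/Z pool *dll4.L* (adjusted p = 0.0516), *gsc.L* (0.085), *lpl.L* (0.0795), *sox17a.L* (0.101) and *vegt.L* (0.0508), and without the second *gsc.L* (0.0944) and *rflb.L* (0.0978). *mixer.L* passed without the second +/Z pool (edgeR adjusted p = 0.0358). Summed homeologs give no value for a single copy. Only genes that did not pass changed sign. With library totals *ccna1.L* was at a log2 fold change of 0.040, *sox3.S* at 0.041, *velo1.L* at 0.082 and *wnt11b.L* at 0.034, and with no filter *velo1.L* was at 0.0057. With a pool left out the ranges were -0.15 to 0.056 for *ccna1.L*, -0.042 to 0.54 for *gsc.S*, -0.044 to 0.26 for *rrm2.2.L*, -0.12 to 0.027 for *sox3.S*, -0.066 to 0.053 for *velo1.L* and -0.28 to 0.21 for *wnt11b.L*. The cause of these changes was not tested. Depth limits genes under about 3 counts a library, where a difference was not detectable.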
